A study of Mus musculus with 12 samples.

Results

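The genes described here encode latent TGF-beta binding proteins (Ltbp1, Ltbp2, Ltbp3 and Ltbp4), fibrillins (Fbn1 and Fbn2), Emilins (Emilin1, Emilin2 and Emilin3) and tropoelastin (Eln). They were picked by symbol as 10 of the 18335 genes listed for both bone regions, and each was found in both, as 12 transcripts in all whose values were summed per gene. The genotype difference in the metaphysis was known when these genes were picked, so their metaphysis differences are given as a description. Messenger RNA of mouse femur was sequenced in 4 groups of 3 libraries each. These were metaphysis Dlx3Oc-cKO (cKO from here on), metaphysis wild type (WT, Dlx3+/+), diaphysis cKO and diaphysis WT. All 12 libraries came from males of 5 weeks on a mixed background, and no treatment is named. The metaphysis is the flared end of the shaft beside the growth plate, and the diaphysis is the shaft itself. Every metaphysis title bears the letters GP, unexplained, and no diaphysis title has them. GP may stand for growth plate, and the amount of growth plate in the metaphysis libraries was not tested. The cKO is a conditional deletion of Dlx3, a homeobox transcription factor gene of bone-forming cells. The labels carry the letters Oc in Dlx3Oc-cKO, and OC in the titles of both genotypes, without spelling them out. They do not otherwise name the promoter that drives the recombinase or say whether WT animals carry a recombinase transgene. Whether each library is a different animal is not said either, so a p-value here reflects only how these libraries vary, and part of that may be technical.

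Fibrillins assemble outside the cell into microfibrils, on which tropoelastin is laid down and cross-linked by lysyl oxidases into elastic fibres. Latent TGF-beta binding proteins resemble fibrillins in their repeated domains. They tether the small latent complex of TGF-beta to microfibrils, from which integrins, proteases and thrombospondin can release the growth factor, whereas Ltbp2 is the family member that does not bind latent TGF-beta. Emilins are glycoproteins found between elastin and microfibrils, and in mouse Emilin1 restrains the processing of pro-TGF-beta. In bone, TGF-beta stored in the matrix is known for coupling resorption to formation.

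Values are RPKM, read counts scaled by transcript length and library size, so levels may be compared between genes. Dlx3 itself measured 1.98, 2.80 and 3.24 RPKM in metaphysis cKO against 8.37, 8.90 and 10.1 in metaphysis WT, and 0.763, 1.55 and 1.17 RPKM in diaphysis cKO against 3.22, 7.64 and 13.1 in diaphysis WT. It was lower in every cKO library than in every WT library of the same region. Libraries held 24.72 to 34.74 M reads (M, mega) in the metaphysis and 18.56 to 54.28 M in the diaphysis, as read from the spacing of the lowest values. Diaphysis WT replicate 1 stood apart. Its correlations with the other 5 diaphysis libraries were 0.907 to 0.949, globin transcripts took 32.6% of its summed RPKM (15.1% to 26.5% in the others), and 12 osteoblast markers summed to 4617 RPKM there, against 18990 and 27071 in the other diaphysis WT libraries. The genotype differences of the members in the diaphysis are therefore given with and without WT replicate 1, and diaphysis WT shares library by library. Diaphysis cKO replicate 1 leaned the same way, with the next highest globin share (26.5%), the fewest reads (18.56 M) and correlations of 0.938 to 0.966. Its osteoblast sum, 11059 RPKM, was the lowest of diaphysis cKO. It stays in the fits without WT replicate 1, which thus keep such a library on the cKO side alone. Defining markers of bone were present in all groups, and no osteoblast or chondrocyte marker of the lists used was at 0 in all libraries of a group.

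Promoter sequences are shown for the members whose metaphysis libraries did not overlap between genotypes and that have a RefSeq entry, to let the windows before their starts be compared, with the letters of 3 motifs in capitals. Each is the 250 bases before the start of transcription on the gene's own strand, 5′ to 3′, from RefSeq on GRCm38.p6. The motifs searched on both strands were TAATT, the core bound by many homeodomain proteins, CAGAC, the Smad box through which TGF-beta signals, and TGTGGT, a Runx core. Capitals mark these letters or their reverse complements, and no 2 motifs overlapped. The Ltbp2 stretch lies at chr12:84876492-84876741 on the minus strand, that of Ltbp3 at chr19:5740650-5740899 on the plus strand and that of Emilin1 at chr5:30913536-30913785 on the plus strand. Emilin2 has 2 starts on the minus strand, at chr17:71311557-71311806 and chr17:71311012-71311261.
Ltbp2: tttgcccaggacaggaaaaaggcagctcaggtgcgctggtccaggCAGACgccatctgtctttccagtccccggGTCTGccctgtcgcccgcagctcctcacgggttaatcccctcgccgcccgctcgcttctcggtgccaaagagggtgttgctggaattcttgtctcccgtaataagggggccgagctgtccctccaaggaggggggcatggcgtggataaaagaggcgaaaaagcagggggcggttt
Ltbp3: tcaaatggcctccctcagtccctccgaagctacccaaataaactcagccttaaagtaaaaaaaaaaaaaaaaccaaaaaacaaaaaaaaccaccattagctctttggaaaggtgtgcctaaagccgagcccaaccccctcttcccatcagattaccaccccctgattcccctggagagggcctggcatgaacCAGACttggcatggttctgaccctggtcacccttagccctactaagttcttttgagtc
Emilin1: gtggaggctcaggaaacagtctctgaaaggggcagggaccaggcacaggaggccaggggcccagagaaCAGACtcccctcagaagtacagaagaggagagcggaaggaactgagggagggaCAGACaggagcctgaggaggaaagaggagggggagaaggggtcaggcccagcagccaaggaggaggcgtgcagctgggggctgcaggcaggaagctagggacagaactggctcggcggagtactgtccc
Emilin2, upstream start: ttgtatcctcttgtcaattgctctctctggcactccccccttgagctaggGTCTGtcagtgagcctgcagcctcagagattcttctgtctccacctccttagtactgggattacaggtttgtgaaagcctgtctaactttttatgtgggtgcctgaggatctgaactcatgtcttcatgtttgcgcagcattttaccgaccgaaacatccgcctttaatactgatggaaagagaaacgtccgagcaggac
Emilin2, downstream start: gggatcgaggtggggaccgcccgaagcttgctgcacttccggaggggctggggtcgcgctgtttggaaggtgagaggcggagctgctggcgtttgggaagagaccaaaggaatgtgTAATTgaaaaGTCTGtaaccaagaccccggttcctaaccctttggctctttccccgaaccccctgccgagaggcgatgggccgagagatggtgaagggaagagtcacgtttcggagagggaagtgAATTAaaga
The Smad box occurred 2 times in the Ltbp2 and in the Emilin1 window and 1 time in the Ltbp3 window and in each Emilin2 window. TAATT occurred 2 times in the downstream Emilin2 window, with its first base 134 and 9 bases before the start, and in none of the Ltbp2, Ltbp3 and Emilin1 windows. Of 32851 promoter windows of the same length, 42.2% held CAGAC, 25.0% held TAATT and 14.0% held TGTGGT, so these letters are common. RefSeq entries were matched for 7 of the 10 members with 11 promoters in all. Emilin3 and Eln had no entry. No promoter window was taken for Fbn2, so whether it has an entry was not tested, and these counts leave it out.

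In the metaphysis, Ltbp2, Eln, Ltbp3 and Emilin1 were higher in cKO than in WT at an adjusted p of 0.05 over the whole table, 0 of the 10 genes were lower, and 5 did not pass (limma, Benjamini-Hochberg). Emilin3 was also past this threshold, but it entered the tested genes through its cKO libraries alone, so it had to differ and is not counted. Over all 12641 genes tested, 7.51% passed as higher and 3.89% as lower. Without overlap between genotypes, 4 members other than Emilin3 were higher and 1 was lower (Emilin2), as were 18.7% and 18.4% of all genes. The members' share is not read against this background, because the same contrast was in view when they were picked. The median log2 difference of all 10 members, Emilin3 included, was 0.44. Over all genes tested it was -0.04, and the members' median is not read against that either. When all 12 libraries shared 1 estimate of the spread, 0 members passed, where 5 of 12321 genes were higher and 2 lower. Calls thus fell over the whole table. The adjusted p in that fit was 0.0894 for Ltbp2, 0.127 for Emilin3, 0.259 for Eln, 0.280 for Emilin1 and 0.417 for Ltbp3 (limma). In bulk tissue, fewer cells of a type and less RNA per cell cannot be told apart. The plot of levels by library shows where the groups separate.

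**Figure D1:**
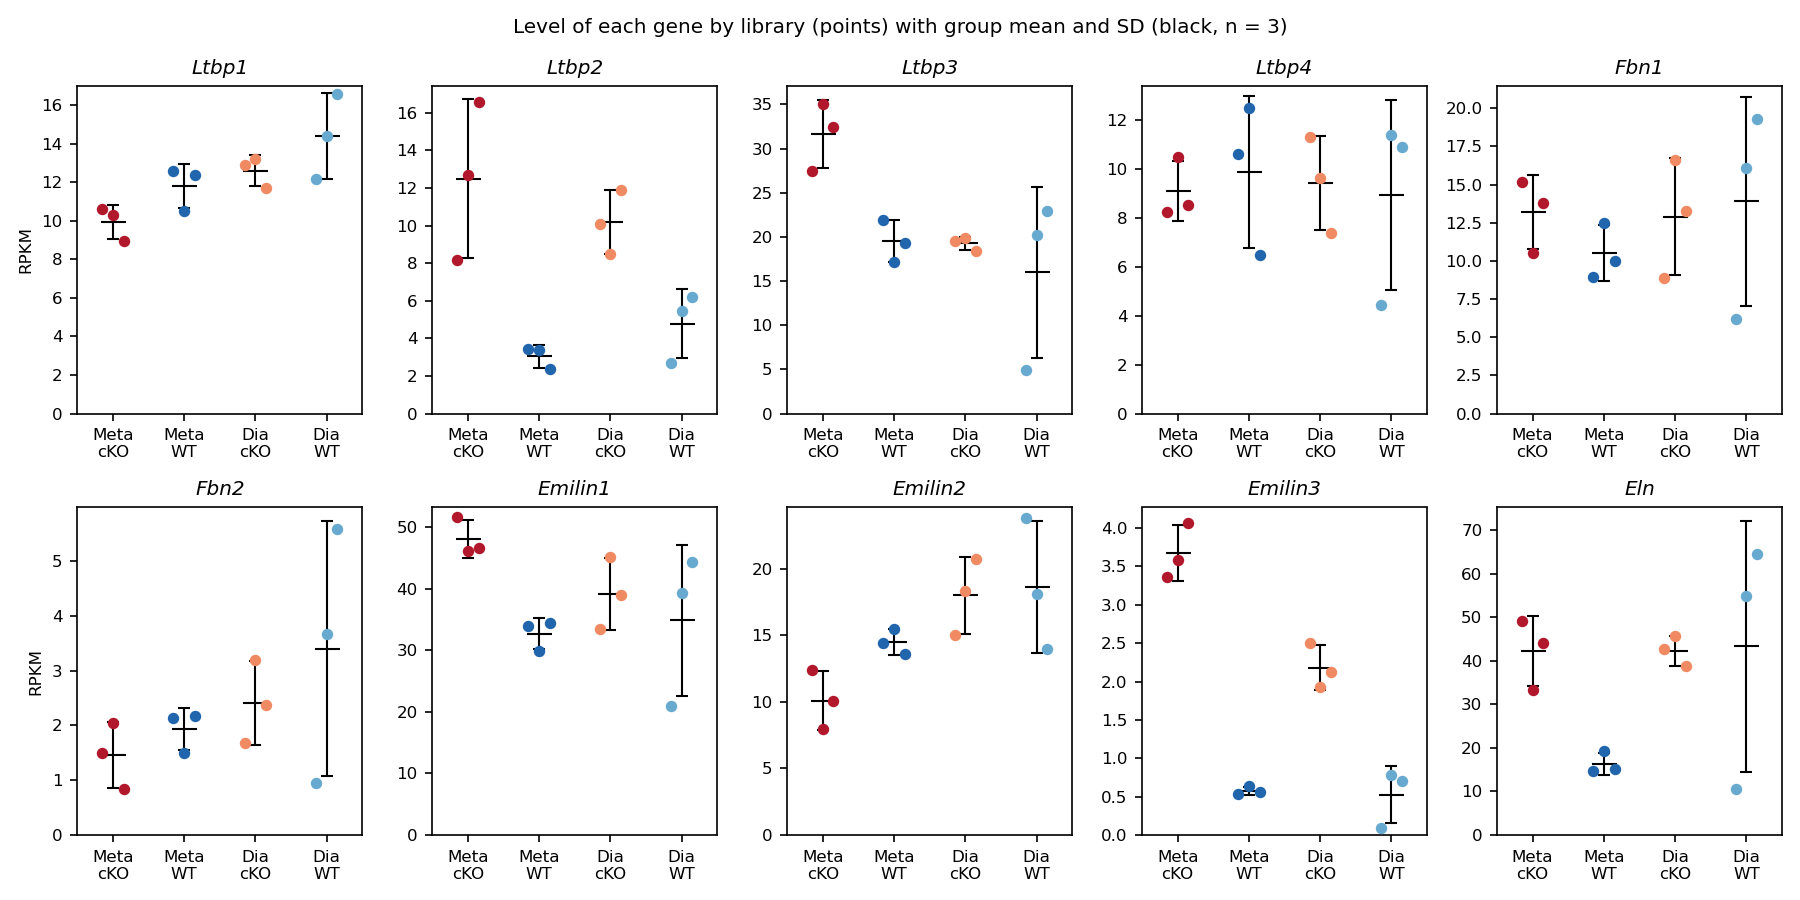
RPKM of each of the 10 genes (vertical axes, linear, each from 0) in metaphysis cKO, metaphysis WT, diaphysis cKO and diaphysis WT; points are libraries and black bars the mean and SD of 3. Emilin3 and Ltbp2 were higher in every cKO library than in every WT library of both regions, and 1 diaphysis WT library was low for Ltbp3, Eln and Emilin1.

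Of the latent TGF-beta binding proteins, Ltbp2 differed most. Ltbp2 (chromosome 12, 86124162 to 86217482, minus strand, mm9) measured 8.18, 12.7 and 16.6 RPKM in metaphysis cKO and 3.43, 3.38 and 2.35 RPKM in metaphysis WT. Every cKO library was above every WT library, and the cKO libraries spread over a wider range than the WT ones. The difference on the log2(RPKM + 0.1) scale was 1.96 ± 0.27 (SE), and the ratio of means was 4.09. In the diaphysis Ltbp2 measured 10.1, 8.48 and 11.9 RPKM in cKO against 2.71, 5.44 and 6.22 RPKM in WT. The genotypes did not overlap there either, with a log2 difference of 1.14 ± 0.32, which did not pass over all genes (limma, adjusted p = 1.00; 2-sided exact permutation p = 0.1, the smallest that 3 against 3 allows). Without diaphysis WT replicate 1 the libraries still did not overlap, at 0.78 ± 0.20.

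Ltbp3, which is needed in mouse for normal bone and tooth growth, was the most abundant of the family in the metaphysis. Ltbp3 (chromosome 19, 5740904 to 5758532, plus strand) measured 27.5, 35.0 and 32.5 RPKM in metaphysis cKO and 21.9, 17.2 and 19.3 RPKM in metaphysis WT, a log2 difference of 0.70 ± 0.13. The genotypes did not overlap, but this call was lost without cKO replicate 3 (0.68), without WT replicate 1 (0.79), 2 (0.61) or 3 (0.70), with no filter on low values, and in the fit of all 12 libraries. In the diaphysis Ltbp3 measured 19.5, 19.9 and 18.4 RPKM in cKO against 4.95, 20.2 and 22.9 RPKM in WT. The cKO libraries lay close together inside the range of the WT ones, and the log2 difference of 0.54 ± 0.53 was -0.16 ± 0.16 without diaphysis WT replicate 1.

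Ltbp1 and Ltbp4, the other holders of latent TGF-beta in this family, did not pass in either region. Ltbp1 (chromosome 17, 75404908 to 75791852, plus strand) measured 10.6, 10.3 and 8.96 RPKM in metaphysis cKO and 12.6, 10.5 and 12.4 RPKM in metaphysis WT. The groups overlapped at a log2 difference of -0.24 ± 0.11. In the diaphysis its values were 12.9, 13.2 and 11.7 RPKM in cKO and 12.2, 14.4 and 16.6 RPKM in WT (-0.18 ± 0.16; -0.30 ± 0.17 without WT replicate 1). Ltbp4, whose product works with fibulins in elastic fibre assembly (chromosome 7, 28090155 to 28122711, minus strand), measured 8.24, 10.5 and 8.54 RPKM in metaphysis cKO and 10.6, 12.5 and 6.48 RPKM in metaphysis WT. Its log2 difference was -0.07 ± 0.24 there, and it turned to 0.004 and 0.12 with WT replicates 1 and 2 left out in turn. In the diaphysis it measured 11.3, 9.62 and 7.39 RPKM in cKO against 4.45, 11.4 and 10.9 RPKM in WT, and its difference of 0.17 ± 0.37 was -0.26 ± 0.21 without WT replicate 1.

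Ltbp2 took a larger share of its family in cKO than in WT. Ltbp2 made up 15.0%, 18.5% and 24.9% of the summed RPKM of the 4 Ltbp genes in metaphysis cKO and 7.07%, 7.75% and 5.80% in metaphysis WT. In the diaphysis its share was 18.9%, 16.6% and 24.1% in cKO and 11.2%, 10.6% and 11.0% in WT. The cKO shares lay above the WT shares in both regions, and diaphysis WT replicate 1, at 11.2%, did not stand apart on this measure. The Ltbp1 share was 16.0% ± 3.14 in metaphysis cKO and 26.9% ± 3.30 in metaphysis WT (SD, n = 3), while in the diaphysis it was 24.5% ± 1.18 in cKO and 50.1%, 27.9% and 29.3% in the WT replicates 1 to 3. The shares of a library sum to a fixed total, so they show unequal levels and not which gene moved.

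**Figure D2:**
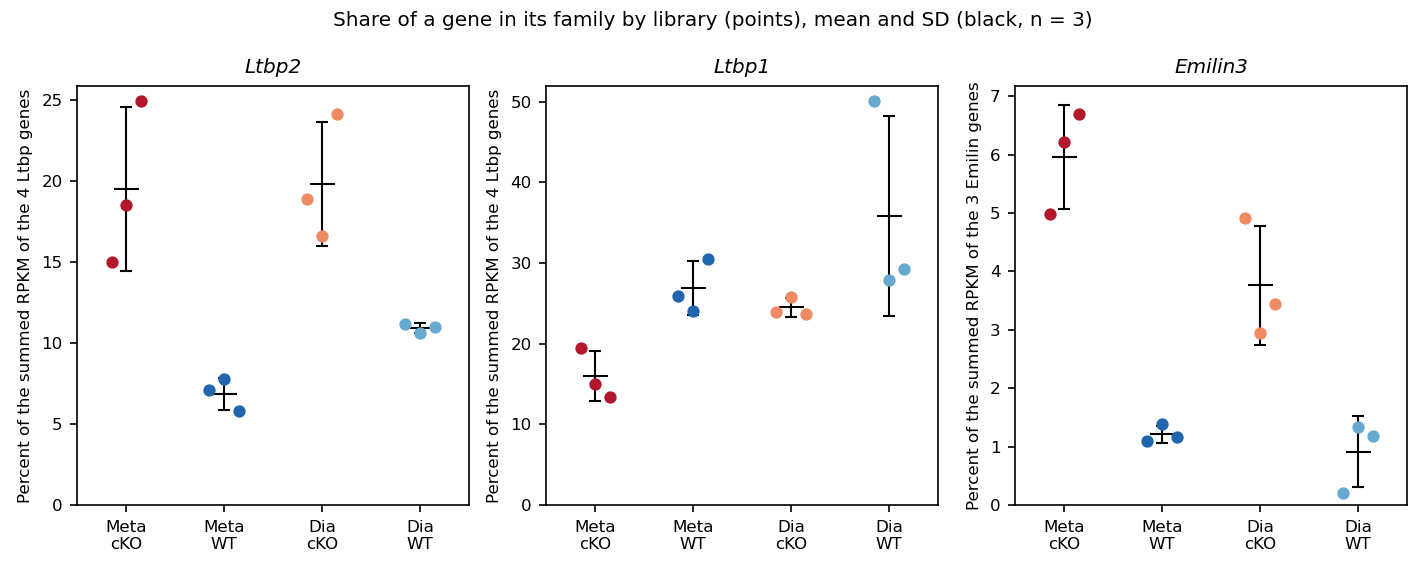
Percent of the family's summed RPKM (vertical axes, linear, each from 0) taken by Ltbp2 and by Ltbp1 among the 4 Ltbp genes and by Emilin3 among the 3 Emilin genes, in metaphysis cKO, metaphysis WT, diaphysis cKO and diaphysis WT. Points are libraries and black bars the mean and SD of 3; the Ltbp2 and Emilin3 shares of cKO lie above those of WT in both regions.

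For both genes with 2 listed transcripts, Ltbp1 and Ltbp4, the transcript shares were close between genotypes. The more abundant Ltbp1 transcript took 76.0% ± 6.94 of the gene in metaphysis cKO, 76.8% ± 5.46 in metaphysis WT, 86.9% ± 1.30 in diaphysis cKO and 87.3% ± 2.14 in diaphysis WT (SD, n = 3; 89.1%, 88.0% and 85.0% in diaphysis WT replicates 1 to 3). The less abundant one measured 2.38 ± 0.749 RPKM in metaphysis cKO and 2.79 ± 0.874 RPKM in metaphysis WT, against 1.65 ± 0.175 RPKM in diaphysis cKO and 1.33, 1.73 and 2.50 RPKM in diaphysis WT. For Ltbp4 the main transcript took 90.2% ± 2.19 in metaphysis cKO, 91.3% ± 2.84 in metaphysis WT, 90.3% ± 4.09 in diaphysis cKO and 89.0% ± 1.65 in diaphysis WT (88.4%, 90.8% and 87.7%). Every genotype difference in the mean shares was below the SD of at least 1 of the groups compared, and the regions are set side by side with no test.

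The fibrillins did not pass in either region. Fbn1, the main microfibril protein and the gene altered in human Marfan syndrome (chromosome 2, 125126330 to 125333729, minus strand), measured 15.2, 10.5 and 13.8 RPKM in metaphysis cKO and 8.92, 12.5 and 10.003 RPKM in metaphysis WT. The libraries overlapped at a log2 difference of 0.33 ± 0.17. In the diaphysis Fbn1 measured 8.90, 16.6 and 13.3 RPKM in cKO against 6.20, 16.1 and 19.3 RPKM in WT, a difference of 0.005 ± 0.43 that became -0.49 ± 0.26 without WT replicate 1.

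Fbn2, a fibrillin used mostly during development (chromosome 18, 58168277 to 58369580, minus strand), stood at 1.46 ± 0.603 RPKM in metaphysis cKO and 1.93 ± 0.385 RPKM in metaphysis WT (SD, n = 3). In the diaphysis it measured 1.67, 3.19 and 2.38 RPKM in cKO and 0.952, 3.67 and 5.58 RPKM in WT. The metaphysis difference was -0.45 ± 0.32, and the diaphysis one -0.21 ± 0.60. Without diaphysis WT replicate 1 all 3 cKO libraries lay below the 2 WT ones, at -0.93 ± 0.31 (limma, adjusted p = 0.775). Fbn1 made up 89.7% ± 5.41 of the fibrillin sum in metaphysis cKO, 84.0% ± 4.62 in metaphysis WT, 84.3% ± 0.458 in diaphysis cKO and 86.7%, 81.5% and 77.6% in diaphysis WT.

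Among the Emilins, the least abundant differed most between genotypes. Emilin3, which in mouse is expressed in the developing skeleton (chromosome 2, 160732173 to 160738064, minus strand), measured 3.36, 3.58 and 4.07 RPKM in metaphysis cKO and 0.532, 0.633 and 0.564 RPKM in metaphysis WT. In the diaphysis it measured 2.50, 1.93 and 2.13 RPKM in cKO against 0.0963, 0.781 and 0.703 RPKM in WT. Every cKO library was above 1 RPKM and every WT library below it, so Emilin3 passed the filter on low values through the cKO libraries alone, in both regions. These levels rest on an estimated 164 to 457 reads in cKO libraries and 55 to 116 reads in WT libraries other than diaphysis WT replicate 1, which had about 9. The log2 difference was 2.48 ± 0.17 in the metaphysis and 2.13 ± 0.59 in the diaphysis, or 1.43 ± 0.27 without diaphysis WT replicate 1. The diaphysis difference did not pass over all genes (limma, adjusted p = 1.00, and 0.344 without that library; 2-sided exact permutation p = 0.1 with all 6 libraries).

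Emilin1, the most abundant Emilin (chromosome 5, 31215775 to 31223651, plus strand), measured 51.7, 46.1 and 46.7 RPKM in metaphysis cKO and 33.9, 29.9 and 34.4 RPKM in metaphysis WT. The genotypes did not overlap, at a log2 difference of 0.56 ± 0.09, and this call was lost without cKO replicate 3 (0.58), WT replicate 1 (0.58) or WT replicate 2 (0.49), and in the fit of all 12 libraries. In the diaphysis Emilin1 measured 33.5, 45.2 and 39.0 RPKM in cKO against 21.0, 39.4 and 44.4 RPKM in WT. These libraries overlapped, with a difference of 0.23 ± 0.29 that was -0.10 ± 0.18 without WT replicate 1.

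Emilin2, unlike the other Emilins, was lower in each metaphysis cKO library than in any WT one, without passing. Emilin2 (chromosome 17, 71601514 to 71660896, minus strand) measured 12.4, 7.93 and 10.1 RPKM in metaphysis cKO and 14.4, 15.5 and 13.6 RPKM in metaphysis WT. The log2 difference was -0.53 ± 0.16, and Emilin2 passed as lower without cKO replicate 1 (-0.69). In the diaphysis it measured 15.0, 18.3 and 20.7 RPKM in cKO and 23.8, 18.1 and 14.0 RPKM in WT, with overlap (-0.03 ± 0.23; 0.16 ± 0.20 without WT replicate 1). Emilin3 took 5.96% ± 0.885 of the Emilin sum in metaphysis cKO and 1.21% ± 0.149 in metaphysis WT, and 3.76% ± 1.02 in diaphysis cKO against 0.214%, 1.34% and 1.19% in diaphysis WT (SD, n = 3). Emilin2 took 16.2% ± 2.34 in metaphysis cKO and 30.4% ± 2.96 in metaphysis WT.

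Eln, whose product is the soluble precursor of elastin (chromosome 5, 135179651 to 135223111, minus strand), measured 49.1, 33.3 and 44.1 RPKM in metaphysis cKO and 14.7, 19.3 and 15.1 RPKM in metaphysis WT. Each cKO library was above each WT library, at a log2 difference of 1.35 ± 0.17. In the diaphysis Eln measured 42.6, 45.6 and 38.7 RPKM in cKO and 10.6, 54.8 and 64.6 RPKM in WT. The cKO libraries were close to each other, while WT spanned a wide range with replicate 1 lowest. The diaphysis difference was 0.33 ± 0.62 with all libraries and -0.49 ± 0.17 without WT replicate 1, where all cKO libraries lay below both WT ones (limma, adjusted p = 0.812).

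**Figure D3:**
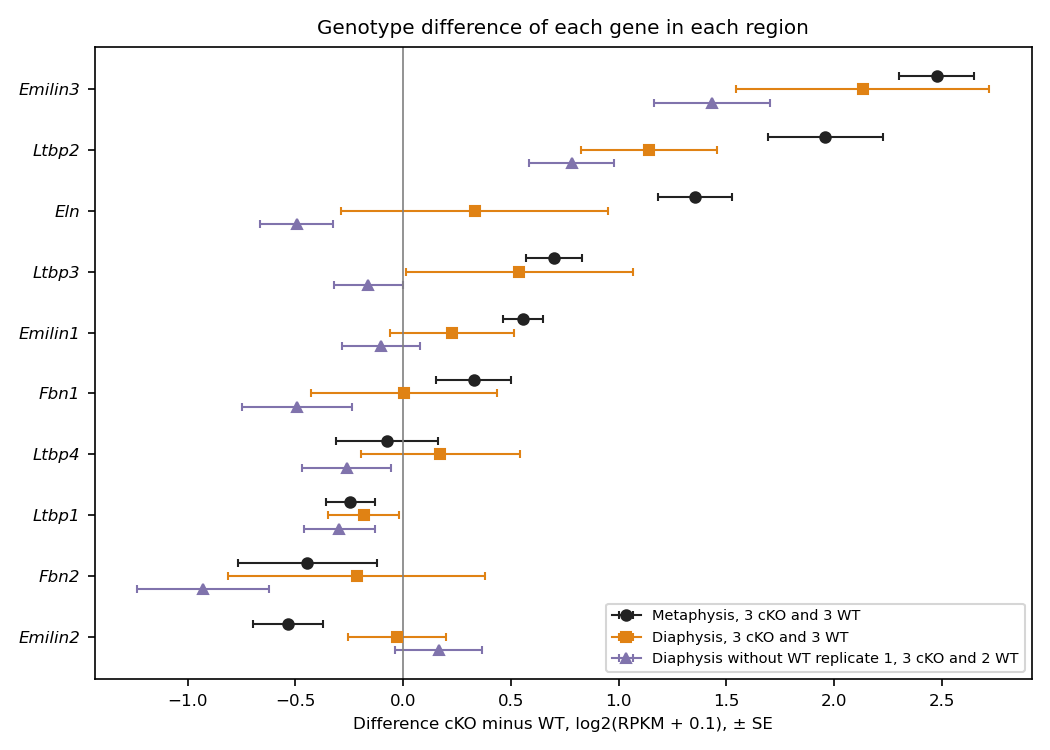
Difference cKO minus WT on the log2(RPKM + 0.1) scale (horizontal axis) with its SE for each gene (vertical axis), in the metaphysis, in the diaphysis and in the diaphysis without WT replicate 1. Emilin3 and Ltbp2 lie to the right of 0 in all 3 fits, while Eln and Ltbp3 lie to the left of 0 in the diaphysis without that library.

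Of 12540 genes tested in the diaphysis, 0 passed with limma after adjustment and 0.686% had an unadjusted p under 0.05, so 0 of the 10 members passed. Emilin3 and Ltbp2 were the 2 members whose diaphysis libraries did not overlap, both higher in cKO, where 2.24% of all genes tested were higher without overlap. Emilin3 again entered the tested genes through cKO libraries alone. Without WT replicate 1 the count passing was again 0 (4.56% at an unadjusted p under 0.05). In that setting 2 members were higher without overlap (Emilin3 and Ltbp2; 8.71% of all genes) and 4 lower (Ltbp1, Ltbp3, Fbn2 and Eln; 9.23% of all genes). The median log2 difference of all 10 members in the diaphysis, Emilin3 included, was 0.20 with all libraries and -0.21 without WT replicate 1. Over all genes tested it was 0.002 and -0.01.

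Whether the genotype difference varies with region was tested in 1 fit of all 12 libraries. It contains the metaphysis difference known when the members were picked, so it is given as a description of the members. Of 12321 genes, 0 passed with limma after adjustment (4.02% at an unadjusted p under 0.05), and the largest metaphysis-minus-diaphysis differences of a member were 1.02 ± 0.73 for Eln and 0.82 ± 0.45 for Ltbp2. Without diaphysis WT replicate 1, 241 genes passed, Eln (1.85 ± 0.24) and Ltbp3 (0.86 ± 0.19) among them. For Emilin3 the metaphysis-minus-diaphysis difference was 0.34 ± 0.65 with all libraries and 1.04 ± 0.27 without that library, and Emilin3 did not pass in either fit.

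Levels across genes were ordered within each group. In metaphysis cKO, Emilin1 (48.1 ± 3.07 RPKM), Eln (42.2 ± 8.07) and Ltbp3 (31.7 ± 3.86) led, each overlapping its neighbour in that order. Fbn1, Ltbp2, Emilin2, Ltbp1 and Ltbp4 followed at 13.2 to 9.09 RPKM with overlapping neighbours, and Emilin3 and Fbn2 were lowest and did not overlap each other. In metaphysis WT, Emilin1 (32.7 ± 2.50) stood clear of Ltbp3 (19.5 ± 2.37), Ltbp3, Eln (16.4 ± 2.53) and Emilin2 (14.5 ± 0.957) overlapped in turn, and so did Ltbp1, Fbn1 and Ltbp4. Ltbp2, Fbn2 and Emilin3 were the lowest there, each clear of the gene above it.

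In diaphysis cKO the order ran from Eln (42.3 ± 3.43 RPKM) and Emilin1 (39.2 ± 5.86), which overlapped, to Ltbp3 (19.3 ± 0.742), and from there every neighbour down to Ltbp4 overlapped, as did Fbn2 and Emilin3 at the low end. In diaphysis WT, each gene overlapped its neighbour from Eln (43.3 ± 28.8) down to Fbn2 (3.40 ± 2.33), and Emilin3 (0.527 ± 0.375) was clear of Fbn2. Without WT replicate 1, Eln (59.7 RPKM), Emilin1 (41.9) and Ltbp3 (21.6) stood clear of each other and of Fbn1 (17.7), and the overlaps left were Fbn1 with Emilin2, Emilin2 with Ltbp1, and Ltbp2 with Fbn2. Across the regions, Eln in WT was 14.7 to 19.3 RPKM in the metaphysis and 54.8 and 64.6 RPKM in diaphysis WT replicates 2 and 3, with 10.6 RPKM in replicate 1. In cKO, Eln was 33.3 to 49.1 RPKM in the metaphysis and 38.7 to 45.6 RPKM in the diaphysis. The 2 regions' values were deposited separately and were not tested against each other.

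Partner genes of these proteins were counted from 9 lists with 68 genes tested in the metaphysis. Of these, 24 were higher in cKO, 1 was lower and the others did not pass (limma, adjusted p under 0.05 over all genes), where 7.51% and 3.89% of all genes passed. The lists were chosen with earlier results of these data known, so their counts are a description. Leaving out cKO replicate 3 gave 4 higher and 0 lower. Leaving out WT replicate 1 gave 5 and 0, leaving out WT replicate 2 gave 8 and 1, and leaving out WT replicate 3 gave 14 and 1. Over all 12641 genes, 949 were higher with all libraries, and 131, 160, 211 and 575 in these 4 settings in turn. Calls thus fell over the whole table, and the leave-out counts of single lists below share that loss. With no filter on low values 15 were higher and 1 lower, where 551 and 177 of 18778 genes were. In the fit of all 12 libraries 0 of 67 passed, where 5 of 12321 genes were higher and 2 lower. In the diaphysis 0 of 68 passed, with or without WT replicate 1.

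Of the factors that free TGF-beta or cut its holders, 8 of 11 tested were higher and 1 lower, with a median log2 difference of 0.62. The 8 became 2 without cKO replicate 3 or WT replicate 1, and leaving out WT replicates 2 and 3 in turn gave 3 and 5. Bmp1, a protease that cleaves latent TGF-beta binding protein and procollagen, measured 122.3 ± 2.96 RPKM in metaphysis cKO and 70.5 ± 12.6 RPKM in metaphysis WT (SD, n = 3; log2 difference 0.81 ± 0.14 SE, limma adjusted p = 0.0171). Mmp14, a membrane-bound collagenase, measured 138.8 ± 8.22 RPKM in cKO and 75.6 ± 10.01 RPKM in WT (0.88 ± 0.11). The integrin subunits Itgav (0.62 ± 0.10) and Itgb5 (0.89 ± 0.10), which pair to bind latent TGF-beta, were also higher, as were Mmp9 (0.94 ± 0.18), Mmp2 (0.39 ± 0.08), Plat (0.80 ± 0.14) and Furin, the convertase of pro-TGF-beta (0.43 ± 0.10). Thbs1, thrombospondin, was lower at 40.1 ± 1.18 RPKM in cKO against 60.6 ± 3.28 RPKM in WT (fell by 0.59 on the log2 scale, SE 0.08).

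Of the ligands, 2 of 8 tested were higher, Tgfb3 (0.47 ± 0.09) and Bmp2 (0.60 ± 0.15), and Tgfb1, the most abundant of the ligands, measured 98.9 ± 8.65 RPKM in metaphysis cKO and 81.7 ± 16.2 RPKM in metaphysis WT without passing. Of 5 receptors and co-receptors, Tgfbr2, the type II receptor, measured 45.7 ± 0.540 RPKM in cKO and 28.5 ± 0.965 RPKM in WT (0.68 ± 0.07), and Eng, a co-receptor of endothelial cells, was higher by 0.61 ± 0.11. Of 7 transducers, Smad3 (0.47 ± 0.09), the inhibitory Smad7 (0.58 ± 0.12) and the corepressor Ski (0.48 ± 0.11) were higher. Of 5 genes often read as TGF-beta targets, Pmepa1 was higher (0.75 ± 0.15), while Ctgf (1.04 ± 0.30) and Postn (0.08 ± 0.26) did not pass. The 2 cell-surface holders of latent TGF-beta, Lrrc32 (-0.20 ± 0.16) and Lrrc33 (-0.24 ± 0.14), did not pass. With cKO replicate 3, WT replicate 1 or WT replicate 2 left out, 0 ligands, 0 transducers, 0 of the target genes and 1 receptor gene were higher. With WT replicate 3 left out there were 1 ligand, 0 transducers, 0 target genes and 2 receptor genes, and the ligands numbered 1 without cKO replicate 1 or 2 and the transducers 1 without cKO replicate 2.

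Of 20 elastic fibre and microfibril partners, 7 were higher, 0 lower and 13 did not pass, with a median log2 difference of 0.28. The 7 became 1 without cKO replicate 3, and leaving out WT replicates 1 and 2 in turn gave 2 and 4. The 7 were the cross-linking enzymes Loxl1 (0.88 ± 0.12), Loxl3 (0.57 ± 0.10) and Loxl4 (1.30 ± 0.26), the fibulins Fbln1 (0.86 ± 0.16) and Efemp2 (0.87 ± 0.15), fibronectin Fn1 (0.55 ± 0.10) and perlecan Hspg2 (0.69 ± 0.08). Bgn, biglycan (0.61 ± 0.20), and Dcn, decorin (-0.62 ± 0.17), the most abundant of the list, did not pass. The ADAMTS and ADAMTS-like genes that act on microfibrils had 0 of 7 passing, and of the 3 relatives of the Emilins with an EMI domain, Mmrn2, an endothelial gene, was higher (0.48 ± 0.11). Leaving out cKO replicate 2 kept 1 of these relatives higher, and leaving out any other metaphysis library left 0 higher.

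**Figure D4:**
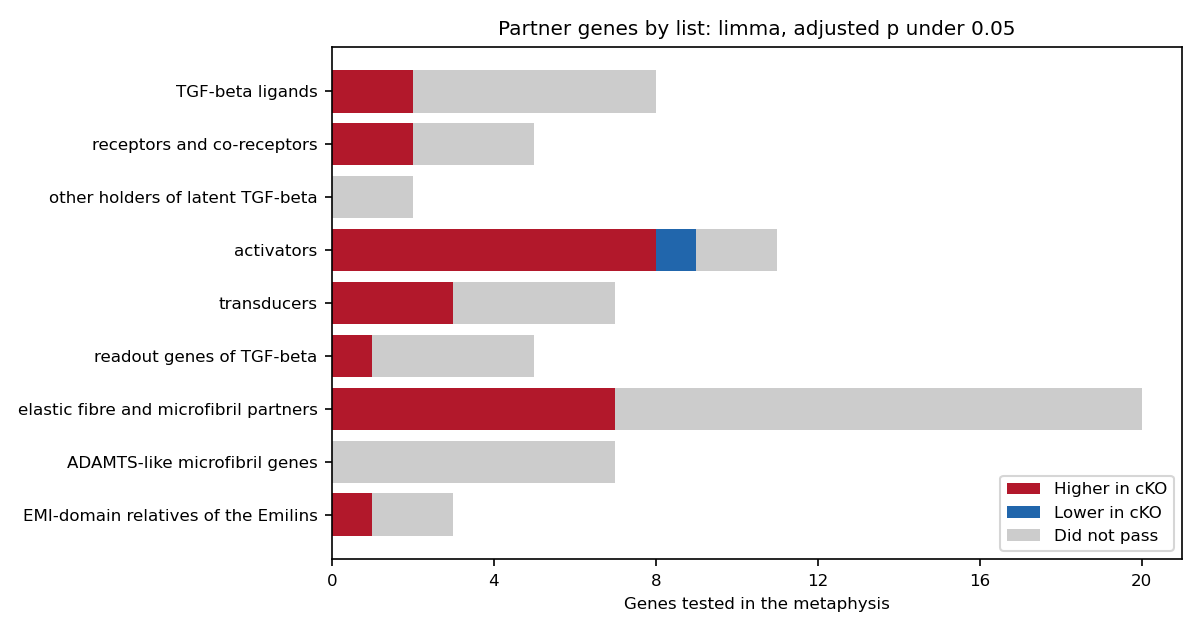
Number of genes tested in the metaphysis (horizontal axis) for each list of partner genes (vertical axis), split into those higher in cKO, lower in cKO and not past an adjusted p of 0.05. The activators had 8 of 11 genes higher and the ADAMTS-like genes 0 of 7. Without cKO replicate 3 or WT replicate 1 the 8 became 2, and calls over all genes fell too.

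Markers of several cell types moved with genotype in the metaphysis, where 7.51% of all genes tested passed as higher and 3.89% as lower. Chondrocyte and growth plate markers summed to 1978.5 to 3002 RPKM in cKO and 1236 to 1463 RPKM in WT, with 10 of 16 higher and 0 lower, and osteoblast markers to 23072 to 24516 RPKM in cKO and 14478 to 18889 RPKM in WT, with 9 of 12 higher and 0 lower. Osteocyte markers summed to 394.6 to 574.0 RPKM in cKO and 230.4 to 357.3 RPKM in WT, and of 5 tested 0 were higher and 1 lower, Pdpn (-1.08 ± 0.19), a gene of early osteocytes. Endothelial markers had 4 of 8 higher and summed to 139.6 to 144.5 RPKM in cKO and 93.5 to 99.9 RPKM in WT. The sums of these 4 lists were higher in all metaphysis cKO libraries than in all WT ones. Erythroid markers had 3 of 11 lower (34486 to 44466 RPKM in cKO, 46114 to 52374 in WT), and B lymphoid markers 5 of 9 lower (223.5 to 277.4 RPKM in cKO, 345.4 to 432.0 in WT). Megakaryocyte markers had 2 of 7 lower (374.4 to 507.7 RPKM in cKO, 612.5 to 767.6 in WT) and cell division markers 4 of 7 lower (290.8 to 435.9 RPKM in cKO, 569.0 to 619.0 in WT). The sums of these 4 were lower in all metaphysis cKO libraries.

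The sums of the other lists overlapped between genotypes in the metaphysis, and their calls stand beside the same 7.51% and 3.89% of all genes. Monocyte and macrophage markers had 2 of 8 higher and 1 lower (406.0 to 469.3 RPKM in cKO, 405.6 to 435.6 in WT), and neutrophil markers 0 of 8 passing (7077 to 10131 RPKM in cKO, 7598 to 12936 in WT). Skeletal muscle markers had 1 of 8 lower, with cKO replicate 2 apart at 9359 RPKM from 2955 and 2446 in the other cKO libraries, against 5538 to 8179 in WT, and 8 of 8 were lower without it. Tendon, periosteum and fibroblast markers had 1 of 10 higher (213.5 to 329.5 RPKM in cKO, 172.0 to 365.1 in WT), smooth muscle markers 0 of 6 passing (101.4 to 214.2 in cKO, 150.4 to 256.3 in WT) and adipocyte markers 0 of 6 (130.9 to 179.9 in cKO, 135.1 to 329.1 in WT). No list had a marker at 0 in all 3 libraries of a group, and the part of these cell types in the differences of the 10 genes was not tested.

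The marker counts varied with the libraries used, as did the calls over all genes. Those were 949 higher and 492 lower with all libraries, and 131 and 32 without cKO replicate 3. Without WT replicates 1, 2 and 3 in turn they were 160 and 20, 211 and 29, and 575 and 90. Without cKO replicates 1 and 2 they were 788 and 636, and 690 and 517. Leaving out WT replicates 1, 2 and 3 gave 2, 4 and 5 chondrocyte calls, and leaving out cKO replicate 3 gave 3. The 9 osteoblast calls were 6 when cKO replicate 3 or WT replicate 1 was left out, and the 4 endothelial calls were 2 without cKO replicate 3, WT replicate 1 or WT replicate 2. Without cKO replicate 3 or any WT library, 0 erythroid, 0 cell division and 0 osteocyte markers passed, while without cKO replicates 1 and 2 the erythroid calls were 6 and 5. Leaving out WT replicates 1 and 2 in turn gave 0 and 3 B lymphoid calls. Megakaryocyte calls were 6 without cKO replicate 1, 0 without cKO replicate 3 or WT replicate 1, and 1 in the other 3 settings. Monocyte markers had 0 calls without cKO replicate 3, WT replicate 1 or WT replicate 2, and the tendon list kept its call without cKO replicate 1 alone. The muscle call was lost without cKO replicate 1 or 3 or WT replicate 1 or 2, and smooth muscle markers had 1 higher and 1 lower without cKO replicate 2. In the fit of all 12 libraries 0 of 113 markers passed.

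In the diaphysis, where Emilin3 and Ltbp2 were higher in cKO without overlap, 0 of 113 markers tested passed, with or without WT replicate 1. Osteocyte markers summed to 556.9, 563.9 and 506.8 RPKM in cKO against 130.0, 362.5 and 488.0 RPKM in WT, so that every cKO library was above every WT one. Of 5 osteocyte markers tested, 2 were higher in cKO without overlap, Mepe and Sost, named here after their values were seen. Mepe, an osteocyte matrix protein gene, differed by 1.65 ± 0.35 on the log2 scale, or 1.26 ± 0.23 without WT replicate 1. It did not pass (limma, adjusted p = 1.00 with all libraries). Sost differed by 0.99 ± 0.40, or 0.71 ± 0.37 without that library, and did not pass. Dmp1, Phex and Pdpn overlapped with all libraries, at 0.68 ± 0.52, 0.59 ± 0.52 and -0.46 ± 0.56. Without WT replicate 1 they stood at 0.02 ± 0.20, -0.09 ± 0.20 and -1.14 ± 0.27. Chondrocyte markers summed to 405.1 to 574.0 RPKM in cKO and 168.4, 666.0 and 967.5 RPKM in WT, and osteoblast markers to 11059 to 15903 RPKM in cKO and 4617, 18990 and 27071 RPKM in WT. Only 9 of the 16 chondrocyte markers were high enough to be tested in the diaphysis. Col11a2, Col11a1 and Col2a1 had the highest means of that list in cKO, at 214.7, 124.9 and 107.3 RPKM. The chondrocyte and osteoblast sums overlapped, and without WT replicate 1 they were lower in cKO. Without that library the tendon and fibroblast sum (280.3 to 443.5 RPKM in cKO, 558.8 and 729.6 in WT) and the adipocyte sum (102.5 to 126.6 in cKO, 132.0 and 153.3 in WT) were also lower in cKO, and the cell division sum (584.9 to 689.4 in cKO, 552.0 and 469.3 in WT) was higher. The sums of the other lists overlapped, and the part of these cell types in the diaphysis values of Emilin3 and Ltbp2 was not tested.

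**Figure D5:**
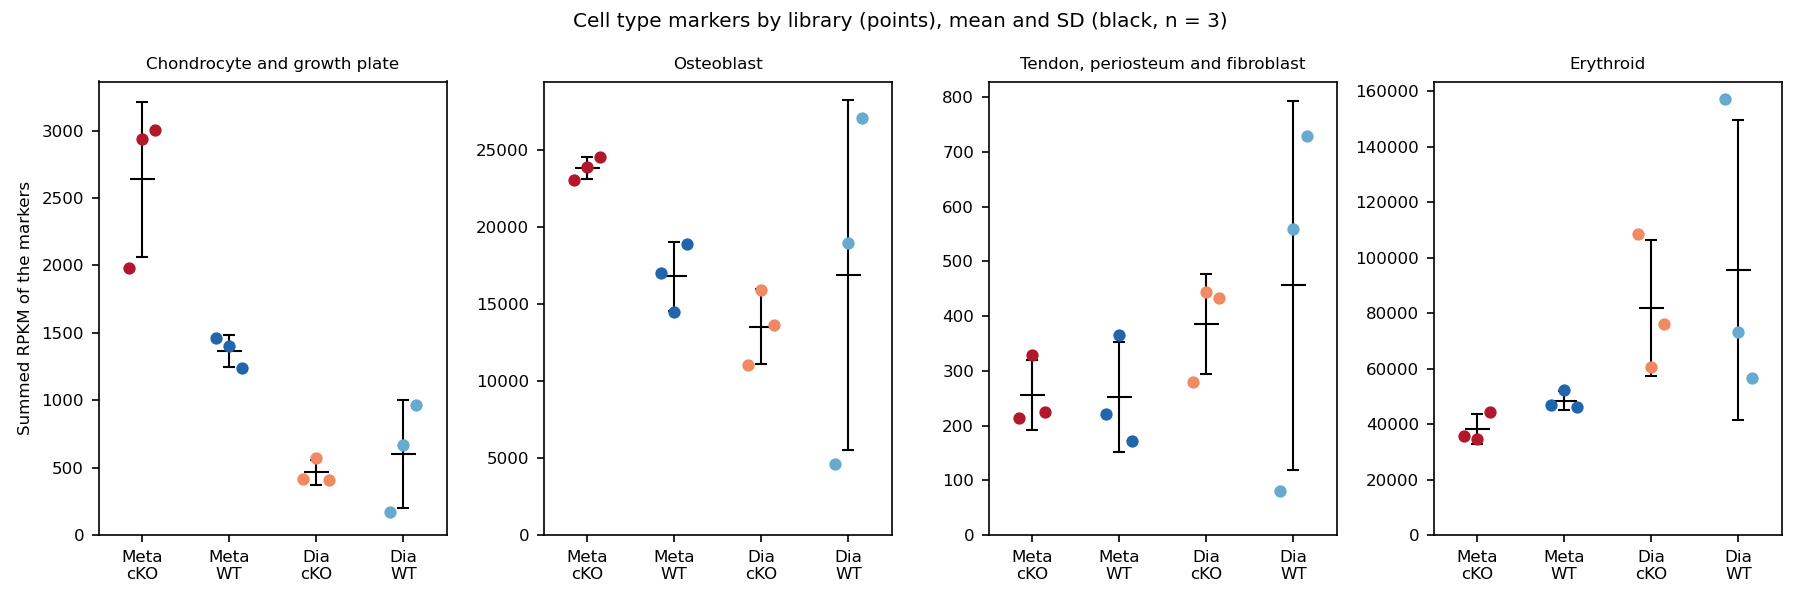
Summed RPKM of 4 marker lists (vertical axes, linear, each from 0) in metaphysis cKO, metaphysis WT, diaphysis cKO and diaphysis WT; points are libraries and black bars the mean and SD of 3. Chondrocyte and osteoblast sums of metaphysis cKO lie above those of metaphysis WT, while diaphysis WT replicate 1 is lowest for both in its group and highest for erythroid markers.

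Genes whose libraries deviated most like each member from their group means were taken as a description over 12 libraries, and the libraries share depth and cell make-up. For Emilin3 the closest were Wtip (Pearson r = 0.985), Hapln1 (0.984), a cartilage link protein gene, and Mapre3 (0.980), but without the 3 diaphysis WT libraries these were 0.551, 0.776 and 0.692 over 9. For Ltbp2 they were Slc35e3 (0.910), Rarres1 (0.892) and Glt25d2 (0.885), a collagen galactosyltransferase gene, and for Eln they were Miat (0.989), Wnt5a (0.976) and Mest (0.975). Over 9 libraries these were 0.817, 0.811 and 0.780 for Ltbp2, and 0.874, 0.525 and 0.882 for Eln. Emilin1 was most like Sash1 (0.990) and Fbn1 most like Nfix (0.988), with 0.971 and 0.965 over 9. The closest to the others were Zfp57 for Ltbp1 (0.930 over 12 and 0.849 over 9), Dact1 for Ltbp3 (0.991 and 0.786), Entpd2 for Ltbp4 (0.977 and 0.947), Lipc for Fbn2 (0.980 and 0.931) and Luc7l2 for Emilin2 (0.974 and 0.981). Among the members, Ltbp3 and Emilin3 had r = 0.946 over 12 libraries and -0.103 over 9, and Ltbp3 and Eln had 0.906 and -0.760, so these values rested on the diaphysis WT libraries. Fbn1 and Eln had 0.896 over 12 and 0.653 over 9.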

How the data were processed

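Messenger RNA of femur metaphysis and diaphysis was measured in 12 libraries, and groups were taken from the labels. The authors deposited RPKM values per RefSeq transcript in 1 table per region, per the file headers. Per the submitters' processing notes the tools were Partek 6.6, Bowtie 0.12.7.0, TopHat 1.3.2 and CASAVA 1.8.2 on mm9, with no role given, and the handling of shared reads is not given in the sources used here. RNA was taken with Trizol and libraries made with the TruSeq kit, per the labels' protocols, which does not mark strand. RPKM does not correct for composition, so a larger globin share lowers the other genes.

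Transcripts were summed per symbol (24456 transcripts of 18778 symbols in the metaphysis, 24824 of 19067 in the diaphysis). Genes with at least 1 RPKM in 3 of 6 libraries of a region were kept, and the same genes were kept when a library was left out. Differences were tested on log2(RPKM + 0.1), which understates changes of low genes, with limma 3.58.1 in R 4.3.3 (mean-variance trend, 2-sided, Benjamini-Hochberg over all genes, threshold 0.05), per region and, for the region contrast, over 4 groups. The per-region fits were also run on simulated data in which genes varied independently, so that run does not cover a library that stands apart. Low values lay within 0.1 of whole reads for 68.8% to 73.6%, too few to rebuild counts, so no count test was run. Reads per gene are estimates from this spacing and cover counting error only. Gene positions are from GENCODE on mm9 and promoters from RefSeq on GRCm38.p6. Python 3.11.15, pandas 2.3.3, numpy 2.4.6, scipy 1.17.1 and matplotlib 3.10.9 were used.

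The members, gene lists and tests were chosen with earlier results of these data known. Named genes are the 10 members, the 3 genes most like each by Pearson r of values centred within groups (the closest 1 to 3 are given), and partner genes that passed or were among the 2 most abundant of their list. Pseudocounts of 1 and 0.01, no filter, the highest transcript, 2 rescalings, 1 fit of all libraries and leaving out each library were tried. Counts of the partner and marker lists without a library were added after seeing the data.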

Additional observations from a re-analysis of the deposited data

How the results depend on the processing

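No paired analysis was possible because the labels carry no shared replicate numbers. With limma, 1441 genes passed in the metaphysis. The count was 728 with no filter on low values, 7 when all 12 libraries shared 1 estimate of the spread, and 163 to 1424 when a metaphysis library was left out (163 without cKO replicate 3, 180, 240 and 665 without WT replicates 1, 2 and 3). Ltbp2 and Eln passed in all of these except the fit of 12 libraries, in which 0 members passed. The same held for Emilin3, but except with no filter it was tested through its cKO libraries alone. Those passes of Emilin3 are not counted. Ltbp3 did not pass with no filter or without cKO replicate 3 or any WT library, and Emilin1 not without cKO replicate 3 or WT replicates 1 or 2. Diaphysis counts were 0 in every setting, with 75 to 572 genes at an unadjusted p under 0.05 in the fits that left out a library. For the region contrast the count was 0, and 2 with no filter, and 0 to 241 when a library was left out, with 241 without diaphysis WT replicate 1.

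Of 440 member values under an alternative, 401 kept direction and side of the threshold, 13 lost the call, 3 gained it and 23 changed sign. Fbn1 in the diaphysis (0.0048) became -0.0047 with a pseudocount of 1 and -0.0014 with the upper quartile rescaled. Leaving out single libraries changed signs, with these ranges: Ltbp4 in the metaphysis -0.35 to 0.12; in the diaphysis Ltbp3 -0.16 to 0.93, Ltbp4 -0.26 to 0.41, Fbn1 -0.49 to 0.32, Fbn2 -0.93 to 0.29, Emilin1 -0.10 to 0.43, Emilin2 -0.22 to 0.16 and Eln -0.49 to 0.81; in the region contrast Ltbp1 -0.17 to 0.052, Ltbp3 -0.23 to 0.86, Ltbp4 -0.52 to 0.19, Fbn2 -0.73 to 0.48 and Emilin3 -0.04 to 1.04. The cause was not tested. Depth limits Emilin3 in diaphysis WT replicate 1, at about 9 reads.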
